A study of Homo sapiens with 14 samples.

Results

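Collagens, laminins and integrins were followed in the PC3 and HCT116 cell lines in normoxia and hypoxia. A gene was taken as a member if its symbol in the count data had the form of a collagen chain (COL, number, A, number), a laminin chain (LAMA, LAMB or LAMC with a digit) or an integrin chain (ITGA with a digit or letter code, or ITGB with a digit). This gave 82 of 23106 genes, of which 44 were collagen chains, 12 laminin chains, 18 integrin alpha chains and 8 integrin beta chains. PC3 is a line from a prostate cancer and HCT116 a line from a colorectal cancer. Polyadenylated RNA was sequenced from cells held at 21% O2 (normoxia) or at 0.5% O2 for 16 h (hypoxia), with 4 libraries for each condition of PC3 and 3 for each condition of HCT116. The labels name no altered gene and no added drug in any group. Each line stands for 1 tumour, grown with serum in its own medium, so the difference between the lines cannot be told apart from the difference in medium. The study's methods call the libraries of a condition biological replicates, and p-values measure the spread between them. These are levels of mRNA, and protein and deposited matrix were not measured.

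A collagen is a triple helix of 3 chains, either copies of 1 gene product or a mixture of related ones. Fibrillar collagens form the fibres of connective tissue, collagen IV forms the sheet of the basement membrane, and collagen VI forms beaded filaments around cells. A laminin joins 1 alpha, 1 beta and 1 gamma chain, and LAMA3 and LAMB3 assemble in 1 laminin of epithelial basement membranes. Integrins are receptors of 1 alpha and 1 beta chain that bind these proteins outside the cell and the cytoskeleton inside it. In epithelium the integrin of ITGA6 and ITGB4 binds this laminin and anchors the cell in hemidesmosomes. Low oxygen stabilises the HIF transcription factors, and the enzymes that hydroxylate collagen are among their established targets.

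The libraries held 98021966 to 123935458 counts in normoxic PC3, 71228454 to 96159803 in hypoxic PC3, 136931675 to 147934177 in normoxic HCT116 and 133067391 to 150630928 in hypoxic HCT116. The 82 members took 0.906% to 1.10% of the counts in normoxic PC3 and 0.978% to 1.26% in hypoxic PC3, against 0.214% to 0.224% and 0.232% to 0.261% in HCT116. Levels are given as CPM, counts relative to library size with all 14 libraries scaled by TMM, and levels of different genes are compared only as CPM per kb of exon. A count of 3, the limit that a count of 0 allows, corresponds to 0.0199 to 0.0421 CPM, and this limit covers counting error only. Both PC3 libraries of replicate 1 stood apart from the others, with higher values of COL5A2, ITGA3 and LAMB3, and the PC3 results are given with and without them. Hypoxic PC3 replicate 4 also lay apart. Its counts differed from hypoxic replicates 2 and 3 by a chi-square of 108 and 147 per gene, against 15.9 between replicates 2 and 3. Epithelial markers (EPCAM, CDH1, KRT8 and KRT18) summed to 2823 to 3959 CPM over all libraries, and those of fibroblasts to at most 2.22 CPM. PC3 had HOXB13 at 81.0 ± 11.8 CPM in normoxia but KLK2 and KLK3 had no count in any normoxic library, and HCT116 had CDX2 at 17.6 ± 1.45 CPM but CDX1, VIL1 and CDH17 at or near 0. As a check of the treatment, 5 known hypoxia response genes summed to 335 to 486 CPM in normoxic and 1992 to 3529 CPM in hypoxic PC3, and to 90.1 to 100.0 and 561 to 804 CPM in HCT116.

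PC3 expressed the larger repertoire of matrix and receptor chains. In normoxia, 34 members had a mean of at least 1 CPM in both lines, 15 reached it in PC3 alone and 1, COL4A4, in HCT116 alone. At the other end, 9 members (the collagens COL19A1, COL20A1, COL22A1, COL23A1, COL25A1, COL6A5 and COL9A1 and the integrins ITGA8 and ITGAD) never exceeded 3 counts in any library. In bulk RNA, fewer expressing cells and less RNA per cell cannot be told apart. Of the 60 members that passed the filter on low counts for the comparison of the lines, 41 were higher and 12 lower in PC3 (edgeR, adjusted p under 0.05), beside 42.9% and 40.5% of the 15206 genes tested, 83.4% in all. The median log2 difference of these 60 members, PC3 over HCT116, was 2.11, while that of all genes tested was 0.03. By class, 18 of 28 collagens, 9 of 11 laminins, 7 of 13 integrin alpha chains and 7 of 8 integrin beta chains were higher in PC3.

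**Figure D1:**
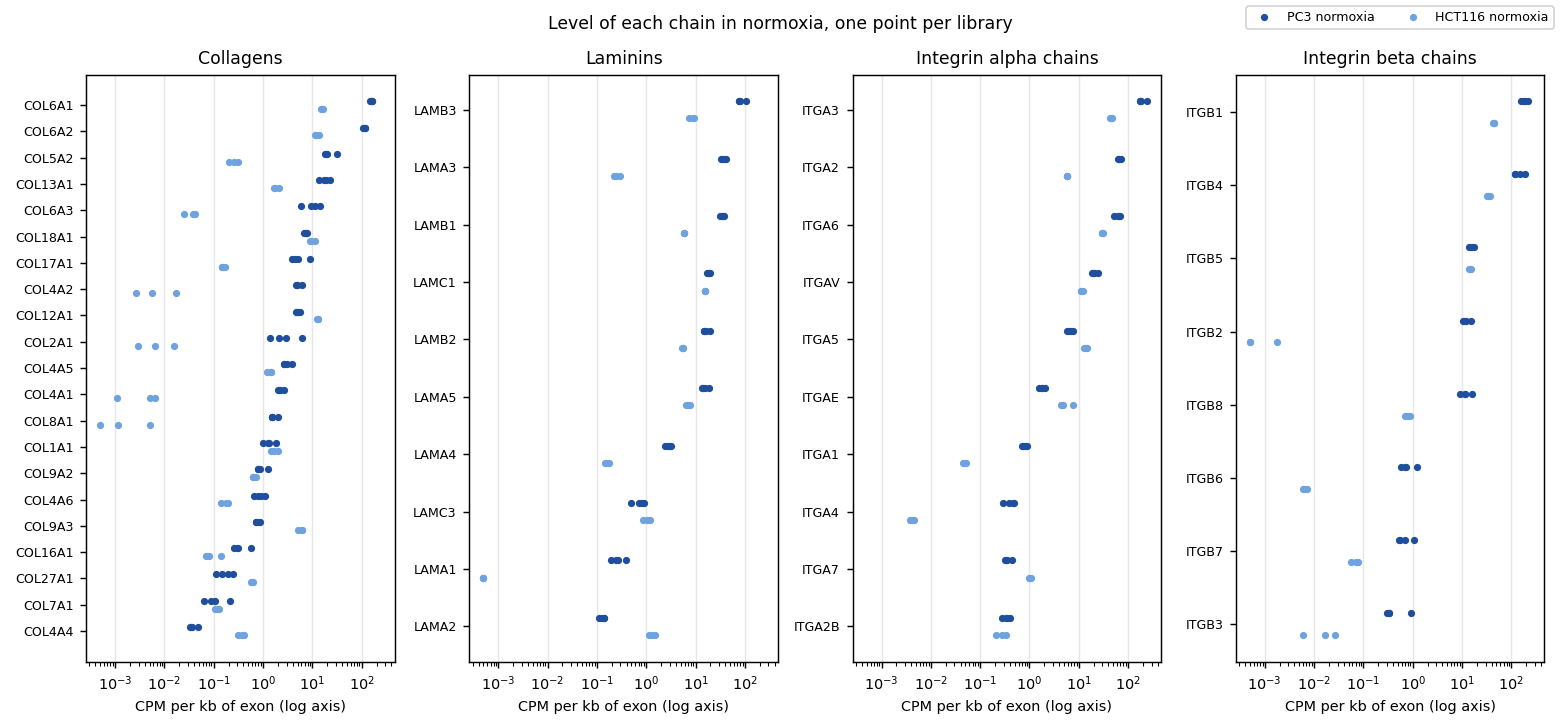
Levels in normoxia of 49 chains with a mean of at least 1 CPM in a line, as CPM per kb of exon on a log axis, with 1 point for each of the 4 PC3 libraries (dark) and 3 HCT116 libraries (light). Values below 0.0005 are drawn at 0.0005, which holds for 6 points of HCT116. COL6A1, LAMB3 and ITGA3 lead their classes in PC3, and LAMA3, COL4A1, COL4A2 and ITGB2 show some of the widest gaps between the lines.

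Collagen VI made up most of the collagen mRNA of PC3. In normoxic PC3 cells, COL6A1 stood at 156 ± 6.195 and COL6A2 at 114 ± 4.39 CPM per kb (SD, n = 4), which was 43.6% and 31.8% of the summed level of all collagen chains. With the length of the longest transcript in place of the exon union, both still led but COL6A2 came first. Both led in HCT116 as well, together with COL12A1, a collagen that associates with fibrils, but at 15.7 ± 0.508 CPM per kb for COL6A1 (SD, n = 3). The third chain of this collagen, COL6A3, was at 10.1 ± 3.51 CPM per kb in PC3 and 0.0353 ± 0.00909 in HCT116. The difference between the lines was thus wide for COL6A3 (log2 fold change 8.14, SE 0.38, adjusted p = 3.72e-08) and for COL6A1 (log2 fold change 3.30, SE 0.07, adjusted p = 3.07e-10). COL12A1 was among the few chains lower in PC3, at 62.0 ± 4.67 against 158 ± 5.35 CPM (log2 fold change -1.36, SE 0.07, adjusted p = 8.72e-08).

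The 6 collagen IV chains lie in 3 head-to-head pairs of genes, and the pairs differed in which line was higher. COL4A1 and COL4A2 lie head to head on chromosome 13, and COL4A3 and COL4A4 lie head to head on chromosome 2 with 170 bases between them. COL4A1 was at 33.3, 25.9, 27.6 and 25.6 CPM in the 4 normoxic PC3 libraries and at 0.0134, 0.0638 and 0.0821 in the 3 of HCT116. COL4A2 was at 96.8, 75.3, 78.5 and 74.9 CPM in PC3 and at 0.0871, 0.0425 and 0.269 in HCT116. The pair that forms the common collagen IV was thus high in every PC3 library and close to the limit of detection in HCT116 (log2 fold change 9.26, SE 0.34, adjusted p = 7.79e-09 for COL4A2). COL4A4 went the other way, with 0.377, 0.352, 0.368 and 0.497 CPM in PC3 and 3.87, 4.21 and 3.23 in HCT116 (log2 fold change -3.26, SE 0.18, adjusted p = 9.51e-08), and COL4A3, which shares 838 exon bases with an antisense RNA, was also lower in PC3 (log2 fold change -2.72, SE 0.48, adjusted p = 0.000437). The level of COL4A1 per kb was 0.435 ± 0.00529 of that of COL4A2 in normoxic PC3, and no ratio is given for HCT116, where both were too low. This ratio rests on exon unions of 12480 and 15745 bases, against 6540 and 6446 for the longest transcripts. COL4A5 and COL4A6, with 340 bases between them on chromosome X, were above 1 CPM in both lines, at 24.0 ± 4.32 and 5.996 ± 1.36 CPM in PC3 and 10.6 ± 1.02 and 1.17 ± 0.177 in HCT116, and were higher in PC3 (log2 fold change 1.16, SE 0.13, adjusted p = 2.25e-05 for COL4A5).

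Of the 8 fibrillar collagens tested between the lines, 5 were higher in PC3 and 1, COL27A1, was lower (log2 fold change -1.78, SE 0.22, adjusted p = 4.36e-05, named after its value was seen), beside 42.9% and 40.5% of all genes. Of the 5, COL24A1 and COL3A1 were low even in PC3, at 0.0140 ± 0.00942 and 0.0335 ± 0.0247 CPM per kb. The call of COL24A1 was lost without any 1 HCT116 library (edgeR adjusted p = 0.0642 to 0.137). That of COL3A1 was lost without HCT116 replicate 1 (0.0525). COL5A2 reached 156 ± 44.9 CPM in PC3 and 1.83 ± 0.371 in HCT116 (log2 fold change 6.40, SE 0.28, adjusted p = 2.24e-08), while its usual partner COL5A1 was below 1 CPM in PC3, at 0.644 ± 0.255, and had 2 counts in all in normoxic HCT116. The ratio of COL5A1 between the lines was 137, with a 95% counting interval of 37.7 to 1140. COL8A1, a short-chain collagen of vessel walls and the cornea, had 9.58 ± 1.53 CPM in PC3 and 5 counts in all in normoxic HCT116, a ratio of 814 (348 to 2507). COL2A1, the collagen of cartilage, was at 31.1, 7.03, 14.6 and 10.8 CPM in PC3, with the replicate 1 library highest, and at most 0.0780 CPM in HCT116. COL17A1 and COL13A1, which span the plasma membrane, were higher in PC3 as well (log2 fold change 5.19, SE 0.34, adjusted p = 4.04e-07 for COL17A1). COL1A1, a chain of the most common collagen of connective tissue, did not pass the test between the lines (log2 difference -0.36, SE 0.19), and COL1A2 was too low to be tested.

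LAMB3 was the highest laminin chain of PC3. LAMB3 and LAMA3 stood at 84.3 ± 15.1 and 36.9 ± 3.53 CPM per kb in normoxia (SD, n = 4). HCT116 was led by LAMC1, LAMB3 and LAMA5, at 15.5 ± 0.120, 8.57 ± 1.03 and 6.99 ± 0.653 CPM per kb (SD, n = 3). LAMA3 was low in HCT116, with 3.91, 3.03 and 3.30 CPM against 510.4, 471, 445 and 553 in PC3 (log2 fold change 7.16, SE 0.14, adjusted p = 2.16e-10). Its level per kb was 0.446 ± 0.0792 of that of LAMB3 in PC3 and 0.0298 ± 0.00346 in HCT116. These ratios rest on exon unions of 13408 and 4647 bases, against 10651 and 4305 for the longest transcripts. LAMC1, a chain of most other laminins, differed least of the laminins that passed the test (log2 fold change 0.23, SE 0.06, adjusted p = 0.00392).

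Among the other laminin alpha chains, LAMA1 was at 3.71, 2.60, 2.37 and 1.85 CPM in PC3 and had no count in normoxic HCT116, which makes it at least 124-fold higher in PC3 when HCT116 is set to 3 counts in each library. LAMA4, the alpha chain of vessel laminins, was also higher in PC3 (log2 fold change 4.13, SE 0.12, adjusted p = 2.17e-09). LAMA2, the alpha chain of muscle laminin, was the exception, at 1.33 ± 0.119 CPM in PC3 and 13.5 ± 1.71 in HCT116 (log2 fold change -3.36, SE 0.12, adjusted p = 8.13e-09). LAMC3 was lower in PC3 too (log2 fold change -0.54), but that call was lost without PC3 replicate 3 or HCT116 replicate 2 or 3 (adjusted p = 0.0579 to 0.0956).

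Of the integrin alpha chains, ITGA3, a laminin receptor chain, was the highest per kb in both lines, at 193 ± 33.7 CPM per kb in normoxic PC3 and 44.6 ± 2.03 in HCT116. It was followed in PC3 by ITGA2, a collagen receptor chain, at 65.9 ± 4.76, and by ITGA6 at 61.7 ± 7.31. In HCT116 ITGA6 and ITGA5, the fibronectin receptor chain, came next, at 30.2 ± 0.732 and 13.6 ± 0.995. ITGA5 was the only one of the 5 chains with the highest level in PC3 that was lower there than in HCT116 (log2 fold change -1.03, SE 0.09, adjusted p = 3.49e-06). In both lines the leading beta chains were ITGB1, ITGB4 and ITGB5, and ITGB5 did not pass the test between the lines, with a log2 difference of 0.07 and an SE of 0.09.

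The widest gap in the receptors was that of ITGB2, the beta chain of leukocyte integrins. It had 65.5, 44.8, 51.7 and 48.5 CPM in normoxic PC3 and 1 count in all in normoxic HCT116, a ratio of 22263 with a 95% counting interval of 3995 to 879388. Its alpha partner ITGAM stood at 0.00156 ± 0.000558 of its level per kb in PC3. Of leukocyte markers, PTPRC was at 0.605 ± 0.216 and CD14 at 0.105 ± 0.00918 CPM in the same libraries, and CD3E and FCGR3A had no more than 1 count in any of them. ITGB3, ITGB6 and ITGB8, which pair with ITGAV, were all higher in PC3 (log2 fold change 6.89, SE 0.41, adjusted p = 1.76e-07 for ITGB6 and log2 fold change 3.90, SE 0.20, adjusted p = 7.01e-08 for ITGB8). ITGA4 and ITGB7 also were higher in PC3, but their exons share 2813 and 1564 bases with CERKL and ZNF740 on the other strand, so their values are uncertain. ITGA9 was found nearly only in HCT116, with 0.456, 0.489 and 0.523 CPM in normoxia against 3 counts over all normoxic PC3 libraries, a ratio of 77.0 (26.0 to 377), and 763 of its exon bases are shared with an antisense RNA.

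Hypoxia raised more of these chains than it lowered. In PC3, 8 of the 57 members tested (14.04%) rose and 0 fell (edgeR quasi-likelihood test, adjusted p under 0.05), beside 6.03% of all 14309 genes that rose and 5.29% that fell, 11.3% in all. DESeq2 also gave 0 that fell, and 2 were lower at an unadjusted edgeR p under 0.05. The 8 were ITGA5, ITGB8, ITGB4, COL8A1, LAMA3, LAMB3, ITGA2 and COL6A1. Of these, ITGA5 alone stayed past the threshold with each PC3 library left out in turn. Without normoxia replicate 2 or normoxia replicate 3 the other 7 lost their call (edgeR adjusted p = 0.0522 to 0.143). Without these libraries 372 and 364 of all genes rose. In HCT116, 16 of 49 members rose and 2 fell (36.7%), beside 14.6% and 11.3% of 14120 genes, 25.9% in all. The groups did not overlap for 7 members in PC3 and 19 in HCT116, beside 20.9% and 42.5% of all genes. All 7 in PC3 lay higher in hypoxia, beside 9.62% of all genes, and in HCT116 17 lay higher and 2 lower, beside 20.3% and 22.2%. The median log2 fold change of the members tested was 0.11 in PC3 and 0.23 in HCT116, where that of all genes tested was 0.00 in each line. When libraries were scaled by their total counts alone, the median of all genes moved to -0.10 in PC3 and -0.09 in HCT116, and that of the members to -0.0024 in PC3 and 0.13 in HCT116. On that scale 5 members rose and 2 fell in PC3, beside 562 and 1733 of all 14309 genes. In HCT116 11 rose and 3 fell, beside 1286 and 3146 of all 14120 genes.

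Of the 46 members tested in both lines, 28 had a fold change above 0 in both and 5 below 0 in both, beside 33.5% and 33% of the 13090 genes tested in both. The fold changes of the lines correlated across these members at r = 0.523, and across all these genes at r = 0.458, a description over genes that share libraries and are not independent. ITGA2, ITGA5, ITGB4, LAMA3 and LAMB3 rose in both lines, 5 of the 46 members tested in both, beside 3.34% of the 13090 genes. The 5 were 62.5% of the 8 members that rose in PC3 and 31.3% of the 16 that rose in HCT116. Of all genes, 437 rose in both lines, while 863 rose in PC3 and 2061 in HCT116. The 5 members encode the alpha chains of a collagen and a fibronectin receptor, the beta chain of the hemidesmosome integrin, and 2 chains of the laminin it binds.

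**Figure D2:**
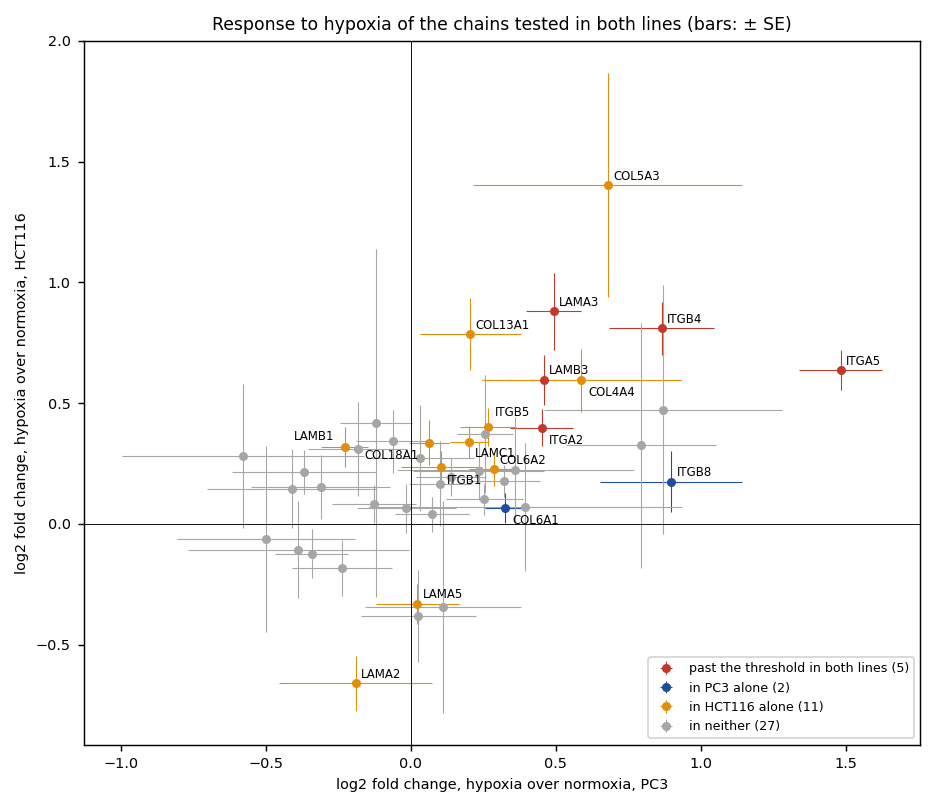
Log2 fold change of hypoxia over normoxia in PC3 (x axis) and HCT116 (y axis) for 45 chains tested in both lines, with bars of 1 SE and colours for the lines in which a chain passed the threshold. The 5 chains past it in both lines lie in the upper right, and ITGA5 lies farthest right at 1.48 in PC3.

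The sequences before the start sites of these genes are shown because HIF binds near many genes that rise in hypoxia. RefSeq windows of build GRCh38.p14 were at hand for ITGA2, ITGA5, LAMA3 and LAMB3, and for LAMB3 the first of its start sites in the table was used. Only 1 window was searched for each gene, and it need not lie at the outermost start site. Other start sites of these genes, LAMA3 among them, were not searched. ITGB4 was not among the 58 members matched. Each line gives 180 bases up to the start site, 5′ to 3′ on the strand of the gene, with matches to the HIF core (ACGTG or GCGTG, on either strand, so also CACGT and CACGC, where ACGTG and CACGT overlap in CACGTG) in capitals.
ITGA2 (chr5:52989172-52989351, plus strand): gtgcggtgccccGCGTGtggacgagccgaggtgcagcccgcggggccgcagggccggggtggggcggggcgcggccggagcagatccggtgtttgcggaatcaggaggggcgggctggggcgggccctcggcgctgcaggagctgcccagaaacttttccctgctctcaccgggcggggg
ITGA5 (chr12:54419267-54419446, minus strand): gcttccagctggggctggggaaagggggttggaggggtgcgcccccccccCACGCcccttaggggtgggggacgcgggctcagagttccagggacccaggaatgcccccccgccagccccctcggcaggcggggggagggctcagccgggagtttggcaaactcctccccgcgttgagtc
LAMA3 (chr18:23872840-23873019, plus strand): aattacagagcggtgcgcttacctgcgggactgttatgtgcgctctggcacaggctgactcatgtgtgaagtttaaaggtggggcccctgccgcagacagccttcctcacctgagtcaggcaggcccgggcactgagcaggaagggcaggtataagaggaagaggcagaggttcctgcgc
LAMB3 (chr1:209652426-209652605, minus strand): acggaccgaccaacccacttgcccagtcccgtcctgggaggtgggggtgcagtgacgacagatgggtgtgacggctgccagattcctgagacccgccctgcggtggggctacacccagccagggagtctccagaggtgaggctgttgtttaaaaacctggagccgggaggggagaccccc
ITGA2 and ITGA5 each had 1 match, which began 168 and 130 bases before the start site, and the windows of LAMA3 and LAMB3 had 0. Over 250 bases before the start site, 21 of 58 members (36.2%) and 43.1% of 27305 promoters of all genes held such a match. A match is a stretch of letters and not a measured binding site.

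ITGA5 had the largest response of the receptors in PC3. The gene lies at chr12:54789045-54813050 (GRCh37), and its product pairs with ITGB1 to bind fibronectin. It was at 30.0, 27.0, 25.03 and 32.1 CPM in the normoxic PC3 libraries of replicates 1 to 4 and at 73.2, 79.1, 63.4 and 103 in the hypoxic ones. In HCT116 it was at 61.1, 58.9 and 53.0 CPM in normoxia and 78.0, 93.9 and 94.2 in hypoxia. Every hypoxic library lay above every normoxic one of its line. The log2 fold change was 1.48 (SE 0.14, edgeR adjusted p = 0.000501) in PC3 and 0.64 (SE 0.08, adjusted p = 0.000338) in HCT116, and both calls held with any 1 library left out. ITGB1 itself, the beta chain shared by most of these receptors, was at 2074 ± 297 and 2224 ± 332 CPM in PC3 and did not pass the test there (log2 fold change 0.11, SE 0.14), and in HCT116 it rose from 490.1, 491 and 479 to 556, 607 and 535 CPM (log2 fold change 0.23, SE 0.07, adjusted p = 0.0265), a call that ended without normoxia replicate 1 or 2 or hypoxia replicate 1 or 2 (adjusted p = 0.0582 to 0.0996). The level of ITGA5 per kb relative to ITGB1 was 0.0307 to 0.0481 in normoxic and 0.0724 to 0.145 in hypoxic PC3, and 0.290 to 0.327 and 0.367 to 0.461 in HCT116. These ratios depend on the length used for ITGB1, and by the longest transcript of each gene they were 0.0133 to 0.0208 and 0.0313 to 0.0629 in PC3 and 0.125 to 0.141 and 0.159 to 0.199 in HCT116.

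ITGB4, at chr17:73717408-73753899 and known to pair with ITGA6 alone, rose in both lines. It stood at 1219, 738, 931 and 751 CPM in normoxic and 2029, 1518, 1612 and 1449.5 CPM in hypoxic PC3, and at 216, 201 and 229 CPM in normoxic and 298, 407 and 417 CPM in hypoxic HCT116. The conditions did not overlap in either line, and in PC3 the replicate 1 library was the highest of each condition. The fold change was 1.82 in PC3 (log2 fold change 0.86, SE 0.18, adjusted p = 0.0175) and 1.75 in HCT116 (log2 fold change 0.81, SE 0.11, adjusted p = 0.000469), and the difference between the lines was 0.07 on the log2 scale (SE 0.24). The PC3 call was lost without normoxia replicate 2, 3 or 4 (adjusted p = 0.0521 to 0.0618). ITGA6 was at 373 ± 44.2 and 465 ± 73.6 CPM in PC3 (log2 fold change 0.32, SE 0.12, adjusted p = 0.126, and 0.00517 with the replicate number as a block) and at 183 ± 4.43 and 204 ± 14.2 in HCT116, where it did not pass the test (log2 fold change 0.18, SE 0.07, adjusted p = 0.0679). The level of ITGA6 per kb relative to ITGB4 went from 0.808 to 0.945 in normoxic to 0.534 to 0.657 in hypoxic HCT116. In PC3 the ranges were 0.265 to 0.573 and 0.185 to 0.383, and within the replicate numbers the ratio was lower in hypoxia in 4 of 4 pairs, with log2 changes of -0.68 to -0.50.

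**Figure D3:**
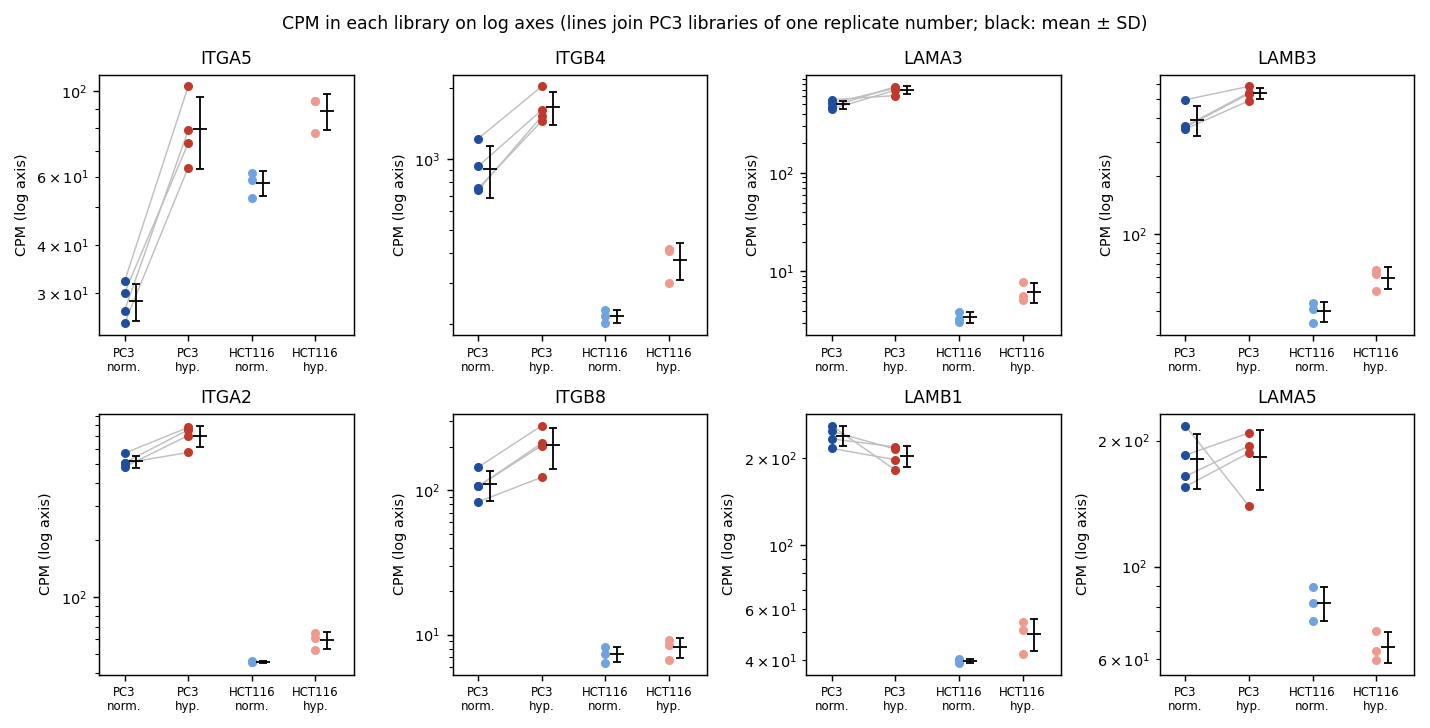
CPM on log axes in each library for 8 chains in the 4 groups, with grey lines between PC3 libraries of one replicate number and black marks for the mean ± SD. ITGA5, ITGB4, LAMA3, LAMB3 and ITGA2 are higher in hypoxia in both lines, and LAMB1 has a lower mean in hypoxia in PC3 and a higher one in HCT116.

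ITGA2, at chr5:52285170-52390609, was at 570.5, 509, 483 and 506 CPM in normoxic and 779.7, 756, 707 and 575 CPM in hypoxic PC3. In HCT116 it was at 45.5, 45.4 and 46.3 CPM in normoxia and 52.8, 65.1 and 60.9 in hypoxia. The groups did not overlap in either line, although hypoxic PC3 replicate 4 lay only just above normoxic replicate 1. It rose in PC3 (log2 fold change 0.45, SE 0.11, adjusted p = 0.0289) and in HCT116 (log2 fold change 0.40, SE 0.08, adjusted p = 0.00369). The PC3 call was lost without any 1 library of replicates 2 or 3, hypoxia replicate 1 or normoxia replicate 4 (adjusted p = 0.0527 to 0.102). Of the other collagen receptor chains, ITGA1 was at 8.41 ± 0.830 and 10.0 ± 0.872 CPM in PC3 (log2 fold change 0.26, SE 0.10, adjusted p = 0.126, and 0.0197 with the block), and part of its exons is shared with PELO on the same strand, which leaves its counts uncertain.

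Among the chains that pair with ITGAV in receptors for vitronectin and the latent form of TGF-beta, ITGB8 rose in PC3 and ITGB5 in HCT116, and ITGAV itself did not pass the test in either line. ITGB8 was at 144, 106, 106 and 82.9 CPM in normoxic and 279, 211, 204 and 123 in hypoxic PC3, where hypoxic replicate 4 lay below normoxic replicate 1. It rose in PC3 (log2 fold change 0.90, SE 0.25, adjusted p = 0.0444), a call lost without any library other than normoxia replicate 1 or hypoxia replicate 4 (adjusted p = 0.0764 to 0.126), and was 7.29 ± 0.878 and 8.15 ± 1.32 CPM in HCT116, which did not pass the test (log2 fold change 0.18, SE 0.13, adjusted p = 0.339). ITGB5 rose in HCT116 from 69.5 ± 3.77 to 90.7 ± 10.2 CPM (log2 fold change 0.40, SE 0.08, adjusted p = 0.00453), and in PC3 it passed with the replicate number as a block (log2 fold change 0.27, edgeR adjusted p = 0.0159) and not without it (0.107). ITGB3, which shares 2266 exon bases with another gene model on its strand, and ITGB6, which shares 966 with a noncoding RNA, passed the test in PC3 only with the block (adjusted p = 0.0025 and 0.0195, against 0.203 and 0.401 without it). ITGA9, a tenascin receptor chain, rose in HCT116 from 0.489 ± 0.0335 to 0.771 ± 0.0326 CPM (log2 fold change 0.67, SE 0.20, adjusted p = 0.0318), a call lost when any of the 6 libraries was left out (adjusted p = 0.0523 to 0.102).

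LAMA3 and LAMB3 rose in both lines. LAMA3, at chr18:21269417-21536186, was at 3.91, 3.03 and 3.30 CPM in normoxic and 5.12, 7.87 and 5.65 CPM in hypoxic HCT116. In PC3 it was at 510.4, 471, 445 and 553 CPM in normoxia and 723, 751, 691 and 609 in hypoxia. LAMB3, at chr1:209788215-209825770, was at 41.2, 34.5 and 43.8 CPM in normoxic and 50.9, 62.4 and 65.5 CPM in hypoxic HCT116, and at 497, 358, 362 and 350.2 CPM in normoxic and 582, 533, 541 and 491 CPM in hypoxic PC3. The conditions did not overlap except for LAMB3 in PC3, where normoxic replicate 1 lay above hypoxic replicate 4. LAMA3 rose in PC3 (log2 fold change 0.49, SE 0.09, adjusted p = 0.0125) and in HCT116 (log2 fold change 0.88, SE 0.16, adjusted p = 0.00272), as did LAMB3 (log2 fold change 0.46, SE 0.13, adjusted p = 0.0469 and log2 fold change 0.60, SE 0.10, adjusted p = 0.00216). The PC3 call of LAMA3 was lost without normoxia replicate 2 (adjusted p = 0.0546) or 3 (0.0522), and that of LAMB3 without any library other than normoxia replicate 1 or hypoxia replicate 4 (0.0841 to 0.143).

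Of the 10 laminins tested in HCT116, 5 rose and 2 fell, beside 14.6% and 11.3% of all genes. Of the 11 tested in PC3, 2 rose and 0 fell, beside 6.03% and 5.29% of all genes. DESeq2 gave 4 and 0 in PC3, beside 1383 and 1185 of 14771 genes, and an unadjusted edgeR p under 0.05 gave 4 and 1. LAMA5, the alpha chain of the laminins of adult epithelial basement membranes, fell from 81.6, 74.1 and 89.4 CPM to 59.8, 62.7 and 70.3 (log2 fold change -0.33, SE 0.08, adjusted p = 0.0144), with no overlap. LAMA2 fell from 13.3, 11.9 and 15.3 CPM to 9.51, 8.09 and 7.70, also with no overlap (log2 fold change -0.66, SE 0.11, adjusted p = 0.00201), and it shares 642 exon bases with an antisense RNA. Of the beta and gamma chains that assemble with LAMA5, LAMB1 and LAMC1 rose instead (LAMB1 log2 fold change 0.32, SE 0.08, adjusted p = 0.0172, LAMC1 log2 fold change 0.34, SE 0.07, adjusted p = 0.00387), and the call of LAMB1 was lost without normoxia replicate 1 or hypoxia replicate 2 or 3 (adjusted p = 0.0542 to 0.0712). LAMB2, another beta chain that assembles with LAMA5, did not pass the test in HCT116. It was at 5.45 ± 0.0573 CPM per kb in normoxia and 5.70 ± 0.639 in hypoxia. The level of LAMA5 per kb relative to LAMC1 was 0.412 to 0.497 in normoxic and 0.272 to 0.293 in hypoxic HCT116. Neither LAMA5 (log2 fold change 0.02, SE 0.14, adjusted p = 0.937) nor LAMA2 (log2 fold change -0.19, SE 0.26, adjusted p = 0.68) passed the test in PC3. The fall of LAMA5 in HCT116 was lost without hypoxia replicate 1 (adjusted p = 0.0544).

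Of 27 collagens tested in PC3, 2 rose and 0 fell, beside 6.03% and 5.29% of all genes, and their median log2 fold change was -0.08. With the replicate number as a block 4 rose and 5 fell there, beside 14.9% and 13.6%. In HCT116 5 of 20 rose and 0 fell, beside 14.6% and 11.3%, with a median of 0.23. At an unadjusted edgeR p under 0.05, 1 collagen was lower in PC3 and 0 in HCT116, and DESeq2 gave 0 that fell in both. COL6A1 was at 686, 641, 629 and 669 CPM in normoxic and 763, 866, 792 and 857 CPM in hypoxic PC3, with no overlap (log2 fold change 0.32, SE 0.07, adjusted p = 0.0192). In HCT116 it was at 65.9 ± 2.13 and 68.2 ± 3.57 CPM and did not pass the test, whereas COL6A2 rose there (log2 fold change 0.23, SE 0.07, adjusted p = 0.0324), a call lost without any library but normoxia replicate 1 (adjusted p = 0.0642 to 0.136). COL6A2 and COL6A3 passed the test in PC3 only with the block (adjusted p = 0.0151 and 0.00256). COL8A1 rose in PC3 from 8.74, 8.80, 8.90 and 11.9 to 13.1, 16.3, 12.6 and 17.2 CPM, with no overlap (log2 fold change 0.63, SE 0.13, adjusted p = 0.0183). Its call was lost without replicate 2 of either condition or normoxia replicate 3 (adjusted p = 0.0613 to 0.0693), and that of COL6A1 without these or normoxia replicate 4 (0.0521 to 0.0803). COL8A1 was too low in HCT116 to be tested.

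In HCT116, COL13A1 rose from 5.83, 5.46 and 6.97 to 7.80, 11.6 and 11.8 CPM with no overlap (log2 fold change 0.79, SE 0.15, adjusted p = 0.00349). COL4A4 rose from 3.87, 4.21 and 3.23 to 5.36, 6.47 and 5.06 CPM, also without overlap (log2 fold change 0.60, SE 0.13, adjusted p = 0.00721), while its head-to-head neighbour COL4A3 did not pass the test (log2 fold change 0.07, SE 0.27, adjusted p = 0.872). COL18A1, the basement membrane collagen from which endostatin is cut, rose from 67.2 ± 8.39 to 83.8 ± 7.23 CPM (log2 fold change 0.34, SE 0.09, adjusted p = 0.0218), with 1563 exon bases shared with SLC19A1 on the other strand. This call was lost without normoxia replicate 2 or hypoxia replicate 1 or 3 (adjusted p = 0.0620 to 0.0945). COL5A3 had the largest fold change of the members tested in HCT116, at the low levels of 0.0603, 0.0638 and 0.157 CPM in normoxia and 0.203, 0.324 and 0.205 in hypoxia (log2 fold change 1.40, SE 0.46, adjusted p = 0.0444). Its call was lost with the block (edgeR adjusted p = 0.0507), though the HCT116 numbers were not taken as pairs. It was also lost without any library but normoxia replicate 3 (edgeR adjusted p = 0.0679 to 0.165). No fibrillar collagen passed the test in PC3 without the block.

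The replicate numbers were taken to pair the PC3 libraries, and with the number as a block 18 members rose and 5 fell in PC3, beside 14.9% and 13.6% of all genes tested. All 8 members called without the block were among the 18. The other 10 included COL6A2, COL6A3, ITGA1, ITGA3, ITGA6, ITGB3, ITGB5, ITGB6 and LAMC1, with log2 fold changes of 0.20 to 0.96. The 5 that fell were all collagens, COL2A1, COL4A1, COL4A5, COL5A2 and COL16A1, with log2 fold changes of -0.67 to -0.24, and COL16A1 is named after its value was seen. COL5A2 was at 223, 127, 138 and 137 CPM in normoxia and 184, 108, 108 and 67.3 CPM in hypoxia, so the conditions overlapped while each pair went down. All 4 pairs went up for each of the 18 and down for each of the 5. This adds no support, because the blocked test picked these members by the same pairs. With both libraries of replicate 1 left out, a choice made after the data were seen, 15 members rose and 2, COL16A1 and ITGA10, fell without the block, beside 7.04% and 5.42% of all genes. With the block 14 rose and 2, COL16A1 and COL2A1, fell, beside 8.25% and 6.35%. The 8 called in the full set stayed past the threshold in both cases, and the falls of COL4A1, COL4A5 and COL5A2 in neither.

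**Figure D4:**
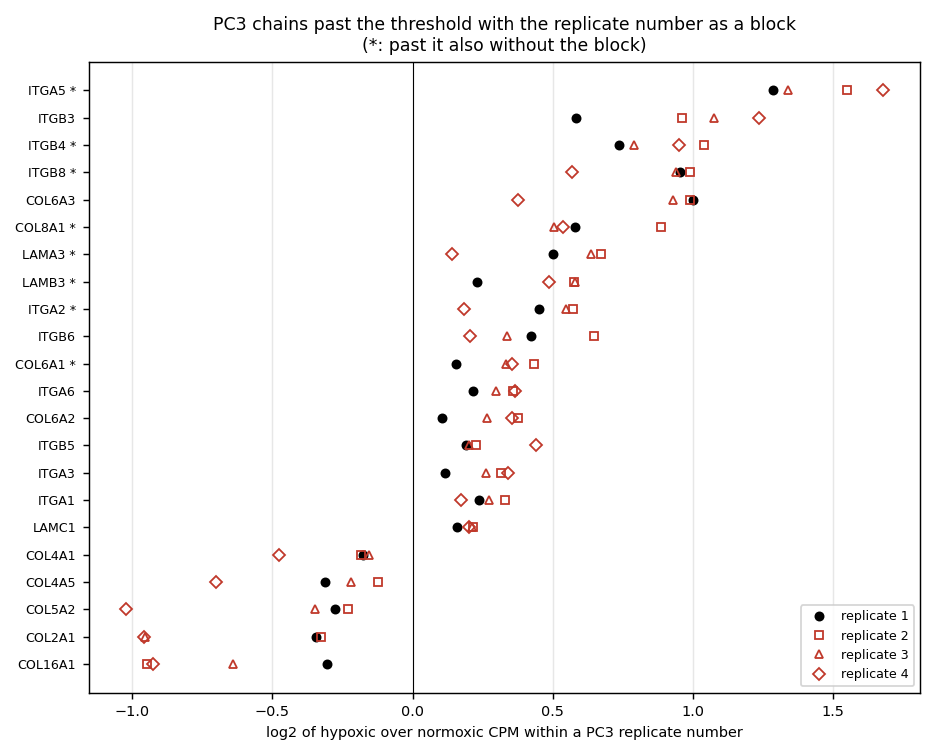
Log2 ratio of hypoxic to normoxic CPM within each PC3 replicate number (x axis) for 22 chains past the threshold with the replicate number as a block, with replicate 1 in black. The 17 chains drawn that rose have 4 points above 0 and the 5 collagens that fell have 4 points below 0. The blocked test picked the chains by these same pairs.

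Whether a chain responded differently in the lines was tested as the interaction of line and oxygen over all 14 libraries. Of 61 members tested, 2 passed (3.28%), 1 in each direction, beside 2.32% of 15493 genes, with 1.01% higher and 1.31% lower in PC3. ITGA5 rose more in PC3, by 0.86 on the log2 scale (SE 0.19, edgeR adjusted p = 0.0302). In normoxia it was lower in PC3 than in HCT116, at 28.6 ± 3.15 and 57.7 ± 4.23 CPM, and in hypoxia the 2 groups overlapped, at 79.6 ± 16.7 and 88.7 ± 9.29. LAMB1 was at 216, 248, 233 and 259 CPM in normoxic and 198, 215, 219 and 182 in hypoxic PC3, and at 39.3, 40.4 and 40.0 CPM in normoxic and 42.2, 51.2 and 54.4 in hypoxic HCT116. Its response was lower in PC3 by 0.54 on the log2 scale (SE 0.13, adjusted p = 0.0443), with a rise in HCT116 and a log2 fold change of -0.23 in PC3 that did not pass the test (adjusted p = 0.101). The level of LAMB1 per kb relative to LAMC1 was 1.75 to 1.99 in normoxic and 1.19 to 1.61 in hypoxic PC3, with no overlap, against 0.370 to 0.386 and 0.350 to 0.390 in HCT116. Both interactions rested on small margins, since the call of ITGA5 was lost without any 1 HCT116 library, PC3 replicate 2 of either condition or PC3 normoxia replicate 3 (adjusted p = 0.0502 to 0.0862). That of LAMB1 was lost without any 1 of 10 libraries (0.0585 to 0.104), the exceptions being PC3 normoxia replicate 1, PC3 hypoxia replicates 3 and 4 and HCT116 hypoxia replicate 1. Without both PC3 libraries of replicate 1 the adjusted p was 0.0273 for ITGA5 and 0.0313 for LAMB1. With the block, 2 members were higher and 2 lower in PC3, beside 3.85% and 4.58% of all genes (8.44% in all). This block also held the HCT116 numbers, which were not taken as pairs. ITGB8 passed as well (log2 difference 0.71, adjusted p = 0.00336), as did LAMA1, which had at most 7 counts in any HCT116 library.

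Of a list of 21 genes that fold, hydroxylate and cross-link collagen, 8 of 21 tested rose in PC3 and 10 of 19 in HCT116, beside 6.03% and 14.6% of all genes. By edgeR without the block 0 fell in either line (2 and 0 by DESeq2, 3 and 0 at an unadjusted edgeR p under 0.05), and with the block 11 rose and 1 fell in PC3. The list had median log2 fold changes of 0.37 and 0.49. P4HA1, a subunit of the prolyl hydroxylase that stabilises the triple helix, rose from 245 ± 42.0 to 586 ± 57.6 CPM in PC3 (log2 fold change 1.26, SE 0.13, adjusted p = 0.000704) and from 38.4 ± 1.98 to 235 ± 28.6 in HCT116 (log2 fold change 2.63, SE 0.09, adjusted p = 1.5e-08). LOXL2, which cross-links collagen, rose in PC3 (log2 fold change 1.33, SE 0.10, adjusted p = 0.00013) and HCT116 (log2 fold change 2.05, SE 0.10, adjusted p = 1.03e-07), and LOX rose in PC3 (log2 fold change 1.46, SE 0.22, adjusted p = 0.00466). PLOD2, a lysyl hydroxylase, rose by 2.88 on the log2 scale in HCT116, more than in PC3 (PC3 minus HCT116 -1.86, SE 0.17, edgeR adjusted p = 3.98e-05).

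The other lists of partner genes are read against the same shares of all genes, 6.03% that rose and 5.29% that fell in PC3, 14.9% and 13.6% there with the block, and 14.6% and 11.3% in HCT116. Of 23 adaptors that link integrins to actin, 3 rose in PC3 (4 with the block) and 6 rose and 2 fell in HCT116. ZYX, a focal adhesion protein, fell in HCT116 (log2 fold change -0.38, SE 0.08, adjusted p = 0.00718). Of 12 other matrix receptors, 1 of 11 tested rose in PC3 (DAG1, dystroglycan, log2 fold change 0.32, SE 0.09, adjusted p = 0.0485, and 4 with the block) and 4 of 11 in HCT116, where SDC4, a syndecan, led (log2 fold change 0.51, SE 0.07, adjusted p = 0.000292). Of 12 basement membrane partners, 0 of 10 tested passed in PC3 (0 by DESeq2, 1 at an unadjusted edgeR p under 0.05) and 2 rose with the block, and 2 of 8 rose in HCT116, one of them HSPG2, the proteoglycan perlecan (log2 fold change 0.59, SE 0.06, adjusted p = 7.33e-05). Among 19 other integrin ligands, 0 of 12 tested passed in PC3 (1 in each direction by DESeq2 and at an unadjusted edgeR p under 0.05), while 6 rose and 1 fell with the block, and 3 of 12 rose in HCT116, and FN1, fibronectin, the ligand of ITGA5, was one of them (log2 fold change 0.56, SE 0.14, adjusted p = 0.0156). Of 18 matrix proteases and inhibitors, 1 of 16 tested fell in PC3, PLAU, the urokinase (log2 fold change -0.64, SE 0.08, adjusted p = 0.00193), and with the block 6 rose and 2 fell, and 2 of 12 rose in HCT116, with its receptor PLAUR the larger (log2 fold change 0.78, SE 0.10, adjusted p = 0.000328).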

How the data were processed

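Polyadenylated RNA of PC3 and HCT116 was sequenced after ERCC spike-in RNA had been added. The authors removed spike-in reads, aligned with HISAT2 2.05 to GRCh37 and counted reads per RefSeq gene with HTSeq 0.5.4p3 in the mode that drops ambiguous reads, and the deposited values were raw counts for each library. Neither the strand setting nor the RefSeq release is given in the sources used here, so members that share exons with other genes are uncertain. Groups were taken from the labels. Counts were filtered (filterByExpr), scaled by TMM and tested with the quasi-likelihood test of edgeR 4.0.16 in R 4.3.3, with all genes in each fit and Benjamini-Hochberg adjusted p-values against a threshold of 0.05. The responses of the lines and their difference in normoxia were fitted on the libraries compared, and the interaction on all 14. Exon unions and GRCh37 positions of the 82 members came from GENCODE. With the longest transcript of each gene instead, 27 of 86 normoxic levels per kb of named members moved by at least 1 SD. The largest change was to 2.44 times the level by the exon union, and ratios between chains depend on these lengths too. Of 200 genes changed 2-fold in simulated counts, 158 (79.0%) were recovered for PC3 (14227 genes) and 181 (90.5%) for HCT116 (14030 genes). Genes called though unchanged numbered 19 for PC3 and 13 for HCT116. For the lines in normoxia 156 (78.0%) were recovered with 4 false calls, and for the interaction 126 (63.0%) with 11. Most members called in hypoxia changed less than 2-fold, a size that was not simulated. For the lines, 200 genes were changed in the simulation, whereas 83.4% of the genes tested differed in the data. PC3 libraries of one replicate number deviated together from their group means (correlations 0.830, 0.519, 0.342 and 0.411 over 15493 genes), so the numbers of the labels were taken as pairs there, whereas those of HCT116 (0.0668, 0.371 and -0.0740) were not. Between different numbers the correlations were -0.580 to 0.357 in PC3 and -0.281 to 0.200 in HCT116. The pairing was thus clear for PC3 replicate 1 and weaker for the other numbers, and the labels do not state it. Counts of replicate libraries were compared in pairs by chi-square, which came to between 12.5 and 268 for each gene, so no library repeated another. Alternatives were other scalings, filters, DESeq2 1.42.0, the replicate block and leaving out each library. The members and lists were chosen with earlier results of these data known. Genes named are those past a threshold in hypoxia or in the interaction, the highest 3 of each class in each line and those that differed most between the lines, and for partner lists up to 3 per list. A few genes are not reported here by name, and figures leave 1 member out.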

Additional observations from a re-analysis of the deposited data

Results flagged for a closer look

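Among 82 groups of 4 PC3 libraries, 1 for each condition and named member with a value, 11 held a library far from the other 3, where chance gives about 1 in 20 groups, or 4.1. Of the 11, 9 were the replicate 1 library and 2 the replicate 4 library. In normoxia, replicate 1 was high for COL5A2 (223 CPM, against 127 to 138 in the others), ITGA3 (1191 against 843 to 884), LAMB3 (497 against 350.2 to 362), COL4A2 (96.8 against 74.9 to 78.5), ITGB3 (6.31 against 2.06 to 2.28) and COL4A3 (0.226 against 0.0536 to 0.0776). The hypoxic library of replicate 1 stood above the other 3 for ITGA3 (1291 CPM against 1049 to 1090), COL2A1 (24.5 against 5.57 to 7.53) and ITGB6 (7.72 against 4.02 to 4.26). Replicate 4 was high for COL8A1 in normoxia (11.9 CPM against 8.74 to 8.90) and low for COL12A1 in hypoxia (52.3 against 72.0 to 75.6). Many chains from several classes were thus highest in the same library.

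The response to hypoxia differed between the lines by the interaction test for ITGA5, which rose more in PC3 (0.86 on the log2 scale), and for LAMB1, whose response was lower in PC3 (-0.54).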

How the results depend on the processing

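No call on a named member turned direction under any alternative. In PC3, where 8 members rose and 0 fell, 5 rose and 2 fell after scaling by total counts and 13 rose with DESeq2. With the replicate block 18 rose and 5 fell, and 1 rose when a log2 fold change of at least 1 was also required. Of all genes, 562 rose and 1733 fell by total counts, 1383 and 1185 with DESeq2 and 2125 and 1949 with the block. At a log2 fold change of at least 1, 138 of all genes rose and 66 fell. With PC3 replicate 1 left out in both conditions, chosen after the data were seen, 15 rose and 2 fell, or 14 and 2 with the block. Leaving out single libraries gave 1 to 12 that rose and 0 to 2 that fell. There was 1 that rose without normoxia replicate 2 or 3 and 3 without hypoxia replicate 2. Of all genes, 372 and 364 rose without normoxia replicate 2 and 3, and 453 without hypoxia replicate 2, against 863 in the full set. In HCT116, where 16 rose and 2 fell, 1 rose and 0 fell at a log2 fold change of at least 1. In one fit over all 14 libraries 11 rose and 0 fell, and without single libraries 11 to 16 rose and 1 to 3 fell. Of all genes in HCT116, 2061 rose and 1597 fell, with 219 and 72 at that log2 fold change and 938 and 795 in the one fit. The replicate block gave 16 and 2 members in HCT116, whose numbers were not taken as pairs. Between the lines, 39 to 41 were higher in PC3 and 11 to 13 lower without single libraries, and 40 and 13 with the block. That block joined libraries of one number across the lines, which were not taken as pairs. Of the interactions, 1 in each direction, DESeq2 gave 2 higher and 3 lower in PC3, the block 2 and 2, scaling by total counts 1 and 0, no filter on low counts 1 and 0, a log2 difference of at least 1 gave 0 and 0, and single libraries left out 0 to 1 in each direction. Of all genes, 156 interactions were higher and 203 lower in PC3, with 466 and 512 by DESeq2 and 597 and 710 with the block. Scaling by total counts gave 119 and 213 of all genes, no filter 124 and 161, and a log2 difference of at least 1 gave 36 and 71. The cause of the differences between settings was not tested. Depth limits members below about 0.0421 CPM, the level of 3 counts in the shallowest library.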
